A study of Bos taurus with 12 samples.

Results

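The interferon regulatory factors measured here are IRF1, IRF2, IRF3, IRF4, IRF5, IRF7, IRF8 and IRF9. They were taken as a family by gene symbol and not by their own measured values, but with earlier results of these data known. These 8 genes were read on the array as 11 of 26323 transcripts, since IRF9 had 4 transcripts and each other gene 1. The samples were biopsies of the endometrium of cows at Day 15 of their cycle, and each was hybridized to 1 single-colour custom bovine array. The old females (OF, n = 4, aged 13 to 14 years and nulliparous) and the young females (YF, n = 4, aged 4 to 5 years and primiparous) were somatic clones of 1 donor cow, and age and parity cannot be told apart. The third group held contemporary cows (CP), whose age, parity and clone status are not given in the sources used here. Of the 4 CP, animal 1111 was set aside in the labels for a divergent phenotype, and the comparisons used the other 3. By the methods of the study, OF and YF were synchronised Holstein females. Their biopsies came from intercaruncular tissue of the horn beside the corpus luteum, and each array is 1 animal.

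Interferon regulatory factors are transcription factors that share a DNA-binding domain recognising interferon-stimulated response elements. IRF3 and IRF7 switch on interferon genes after nucleic acids are sensed, IRF9 is the DNA-binding part of the complex ISGF3 that carries the signal of type I interferons to their target genes, and IRF1 is induced by interferon gamma and is antagonised by IRF2. IRF5 acts downstream of Toll-like receptors, and IRF4 and IRF8 are best known from lymphoid and myeloid cells. In ruminants the endometrium of the pre-implantation period is where the conceptus signal interferon tau acts, although the animals here were cycling.

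What the arrays read of each gene is set by its probes, each of 60 bases, and the probes are shown because the values of IRF4, IRF2 and IRF1 turned on which probe was read. The transcripts lie, on the assembly named in the array files (bosTau6, UMD3.1), at chr7:23235653-23243697 for IRF1, chr27:13909933-13950319 for IRF2, chr18:56517723-56523302 for IRF3, chr23:52050985-52064928 for IRF4, chr4:93706154-93717881 for IRF5, chr29:50903719-50906820 for IRF7, chr18:11883376-11905043 for IRF8 and chr10:20820964-20825414 for the IRF9 transcript with the highest signal. The array files give no strand, exon or intron for them. The following probes, written as in the files, have an open reading frame over their whole length. The first probe of IRF4 was well above background on 0 of the 12 arrays and the second on 12.
IRF4, first probe: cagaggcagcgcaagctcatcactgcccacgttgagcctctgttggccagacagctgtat
IRF4, second probe: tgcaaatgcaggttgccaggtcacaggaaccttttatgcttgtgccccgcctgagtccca
IRF2, first probe: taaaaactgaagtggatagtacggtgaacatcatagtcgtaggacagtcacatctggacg
IRF2, second probe: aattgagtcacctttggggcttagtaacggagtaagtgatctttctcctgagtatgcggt
IRF3: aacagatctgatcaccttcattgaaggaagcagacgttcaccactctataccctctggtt
IRF7: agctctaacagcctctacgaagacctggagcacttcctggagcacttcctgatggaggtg

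Of the other genes only 30 bases of a probe are given. In IRF8 the 2 probe sequences shared 32 bases and in IRF5 46 bases, so that within these genes the probes were close to repeated readings of 1 stretch; the bases printed for them in capitals belong to that shared stretch. The 4 IRF9 transcripts were read by 4 sequences in all, several of them used for more than 1 transcript and 2 of them sharing 57 bases, and the transcripts therefore cannot be counted as separate measurements. The array lists IRF9 under its older symbol, ISGF3G.
IRF8: CCCTTGTTGCCAGGAAGCTTAGAGCTGAAT
IRF5: CCCTTGAGAAACTAAGAACCTGGGATAGAA
IRF9: tgagataaaccgtctttcatctctgaggaa
IRF1, first sequence: agtggctaccatattgaatagtacaggtag
IRF1, second sequence: gtgtgctaaatcaaacacttgaaatgtgac

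Values are log2 signals relative to the 75th percentile of the same array, so that 0 is the level of that percentile, and they compare animals within a gene and not genes with each other. Depending on the array, 71.6% to 74.9% of the spots exceeded background clearly and 0 were saturated. As for the labelled tissue, 8 of 8 epithelial, 8 of 8 stromal and 4 of 5 uterine marker genes were well above background on all 11 arrays compared. The 12 arrays lay on 2 slides. Slide 1 carried YF 1070, YF 1072, OF 0245 and CP 1111, and slide 2 the other 8. The biopsies of OF 2258 and OF 0234 stood apart in smooth muscle markers, whose mean deviation from the average of the animals was 4.15 in OF 2258 and 2.52 in OF 0234 and between -1.61 and 0.09 in the other 9 animals compared. The epithelial marker level was lowest in OF 2258, at -1.93. In a biopsy, fewer cells of a type and less RNA per cell cannot be told apart.

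The first question was whether the factors differed with age, between OF and YF. None of the 8 passed any test used. The log2 differences OF minus YF lay between -0.24 for IRF7 and 0.17 for IRF4, with 2 of 8 above 0 and a median of -0.04, against a median of 0.01 over all 19755 transcripts tested. The value of IRF4 is the mean of both probes, and it was 0.08 by the probe above background. With limma and Benjamini-Hochberg adjustment over all transcripts, 0 of 8 passed at 0.05 and every adjusted p was 0.999 or above. Over all transcripts limma also called 0 (0.0%), and 2.42% had an unadjusted p of 0.05 or less, which none of the 8 had. The animals of OF and YF overlapped for all 8 genes, whereas the groups did not overlap for 1.53% of all transcripts. The fold change rank ordering statistics (FCROS) rank the ratios of every OF over every YF and called 4.94% of 26323 transcripts at a fold change of 1.5, but again 0 of the 8 factors. FCROS calls the transcripts in fixed tails of a distribution fitted to the ranks of all transcripts. The share called is thus largely set by that cut and does not count transcripts shown to differ with age.

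**Figure D1:**
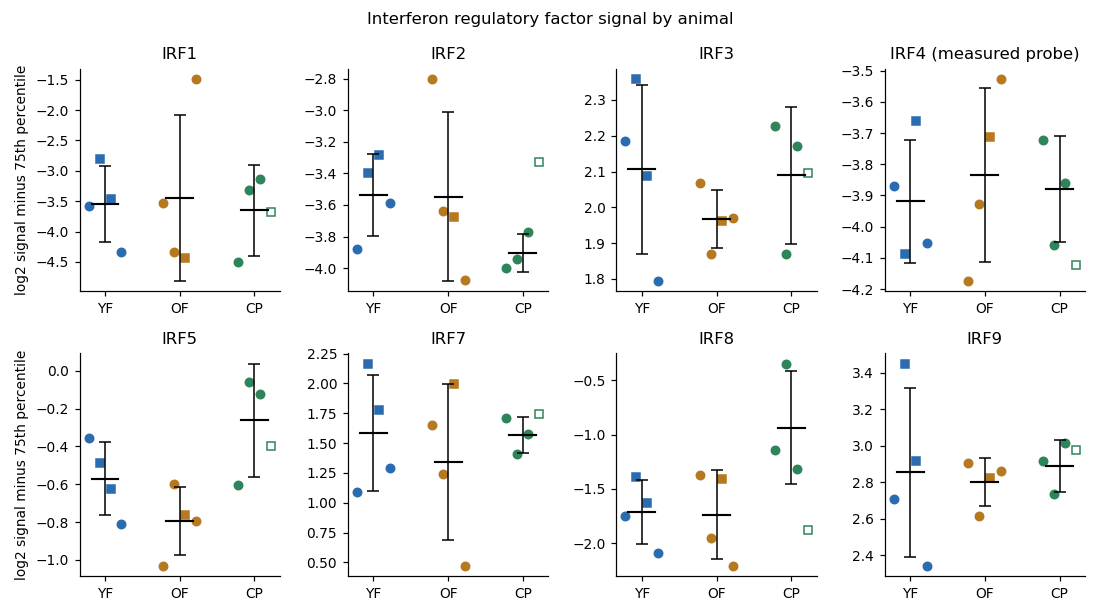
Log2 signal relative to the array's 75th percentile (vertical axis) of each interferon regulatory factor in every animal of YF, OF and CP; circles are slide 2, squares slide 1, the open square is CP 1111, and the bars are the mean ± SD without it. For IRF4 only the probe above background is drawn; IRF8 is the only gene in which all 3 CP lie above every YF and OF, while the open square lies among them.

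For the factors that induce interferon genes, the values were as follows. IRF3 was 2.18 in YF 1069, 2.36 in YF 1070, 2.09 in YF 1072 and 1.79 in YF 1127, and 2.07, 1.87, 1.96 and 1.97 for OF 0233, OF 0234, OF 0245 and OF 2258. The 4 OF lay close together, with an SD of 0.08 against 0.24 in YF, and all lay within the range of the YF. The difference was -0.14 (limma SE 0.15, adjusted p = 0.999), and its 95% interval from the pooled SD ran from -0.44 to 0.17. The 3 CP read 2.23, 1.87 and 2.17 (CP 1068, CP 1128 and CP 1129), in the same range.

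IRF7 varied more. It was 1.09 in YF 1069, 2.17 in YF 1070, 1.78 in YF 1072 and 1.29 in YF 1127, and 1.65, 1.24, 1.99 and 0.47 for OF 0233, OF 0234, OF 0245 and OF 2258. The lowest of all was thus OF 2258, the animal with the highest smooth muscle markers. The difference OF minus YF was -0.24 (limma SE 0.36, adjusted p = 0.999), and it was 0.05 without OF 2258; the part of the smooth muscle markers in it was not tested. The CP read 1.71, 1.41 and 1.58, between the extremes of the other groups.

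IRF7 was also the factor that went most closely with the slide. All 4 arrays of slide 1, CP 1111 among them at 1.75, lay above every slide 2 array of their own group. Over OF and YF the slide 1 arrays were higher by 0.82 (limma SE 0.28), with an unadjusted p of 0.0207 and an adjusted p of 0.577, in a fit where 8.38% of all transcripts had an unadjusted p of 0.05 or less and 0.0% passed adjustment. Of the other factors, IRF8 (0.42) and IRF9 (0.39) had the next largest slide differences, both with an adjusted p of at least 0.583. Among the arrays of slide 2 alone, the OF minus YF difference of IRF7 was -0.07 (3 against 2 animals, exact permutation p = 1.0), and CP minus YF was 0.38 with no overlap (3 against 2, exact permutation p = 0.2, the smallest the design allows). IRF8 (0.98) and IRF9 (0.36) did not overlap in that comparison either, each with the same exact permutation p of 0.2. The share of all transcripts without overlap was not computed for these animals. With so few animals groups separate easily, and no result about the factors can be drawn from the lack of overlap on slide 2.

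IRF9 was 2.71 in YF 1069, 3.45 in YF 1070, 2.91 in YF 1072 and 2.34 in YF 1127. In OF 0233, OF 0234, OF 0245 and OF 2258 it was 2.90, 2.61, 2.82 and 2.86, and in CP 1068, CP 1128 and CP 1129 it was 2.91, 2.74 and 3.02. The YF held both the highest and the lowest animal, with an SD of 0.46 against 0.13 in OF and 0.14 in CP. The group means were 2.85, 2.80 and 2.89, and OF minus YF was -0.05 (95% interval -0.64 to 0.54).

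IRF1, which activates genes of the interferon gamma response, had the widest spread of the 8. In YF 1069, YF 1070, YF 1072 and YF 1127 it was -3.58, -2.80, -3.47 and -4.34. The OF, again in the order OF 0233, OF 0234, OF 0245 and OF 2258, read -3.53, -4.34, -4.43 and -1.48. OF 2258 stood above all other animals, and both IRF1 sequences read it highest. OF minus YF was 0.10 with OF 2258 and -0.55 without it, and the 95% interval of the first ran from -1.74 to 1.95. The CP read -4.50, -3.31 and -3.13. The second IRF1 sequence was well above background on 11 of the 12 arrays, and in CP 1068 the 2 probes that carry it read -6.80 and -6.01, where the first sequence read -2.58 and -2.62. The CP minus YF difference of the 4 IRF1 probes accordingly ran from -0.57 to 0.16.

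IRF2, known as an antagonist of IRF1, was -3.88, -3.40, -3.28 and -3.59 in YF 1069, YF 1070, YF 1072 and YF 1127. In OF 0233, OF 0234, OF 0245 and OF 2258 it was -2.80, -3.64, -3.68 and -4.07, and in the CP -4.00, -3.95 and -3.77. OF 0233 was the highest of all animals, and the probes shown above differed there: the first read -2.74 against -3.77 in the next highest of the animals compared, while the second read -2.86, below YF 1072 at -2.80. Their group means differed by -0.01, OF minus YF (95% interval -0.74 to 0.72). CP minus YF was -0.37 (limma SE 0.19, unadjusted p = 0.0856, adjusted p = 0.9999), and the lowest YF lay below the highest CP.

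IRF4 can be given only from its second probe, because the first was never above background. That probe read -3.87 in YF 1069, -4.09 in YF 1070, -3.66 in YF 1072 and -4.05 in YF 1127, and -4.17, -3.93, -3.71 and -3.53 for OF 0233, OF 0234, OF 0245 and OF 2258. The CP read -3.72, -4.06 and -3.86, and the 3 groups overlapped fully. Its differences were 0.08 for OF minus YF, 0.04 for CP minus YF and -0.05 for CP minus OF. The mean of both probes, which entered the counts over members, gave 0.17, -0.02 and -0.19, so the sign of CP minus YF rested on the probe that did not measure the gene.

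The remaining comparisons set CP against YF and against OF, and they share the CP animals with each other and the YF or OF animals with the comparison above. The arrays of the 3 CP all lay on slide 2. IRF8, a factor of myeloid cell development, was the gene that differed most in both. It was -1.14 in CP 1068, -0.35 in CP 1128 and -1.32 in CP 1129. In YF 1069, YF 1070, YF 1072 and YF 1127 it was -1.75, -1.39, -1.63 and -2.09, and in OF 0233, OF 0234, OF 0245 and OF 2258 it was -1.37, -1.95, -1.41 and -2.21.

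All 3 CP lay above all YF and all OF in IRF8, although the lowest CP exceeded the highest YF by only 0.07 and the highest OF by 0.05. CP minus YF was 0.78 (limma SE 0.28, 1.72-fold, unadjusted p = 0.0239, adjusted p = 0.9999), and the exact permutation test gave p = 0.0571, the smallest value that 3 against 4 animals allow. CP minus OF was 0.80 (limma SE 0.32, 1.74-fold, unadjusted p = 0.0380, adjusted p = 0.912, exact permutation p = 0.0571). The 4 IRF8 probes differed by 0.66 to 0.84 in the first comparison and by 0.77 to 0.86 in the second. Over all transcripts, 1.51% had CP above every YF and 2.86% had CP above every OF (3.83% and 5.79% when either direction is counted), and IRF8 was the 1 of 8 factors without overlap in each, with 0 of 8 past the adjusted threshold where limma called 0.0% of all transcripts. Without CP 1128 the differences were 0.48 and 0.51. Among slide 2 arrays they were 0.98 (3 against 2, exact permutation p = 0.2) and 0.91 (3 against 3, exact permutation p = 0.1), the smallest values possible there.

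CP 1111, the animal excluded in the labels, read -1.87 for IRF8, below all 3 other CP and within the range of YF and OF. With it included, CP minus YF was 0.54 (exact permutation p = 0.2) and CP minus OF 0.57 (exact permutation p = 0.143), and the groups overlapped.

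IRF5, a factor of Toll-like receptor signalling in phagocytes, was next. It was -0.60 in CP 1068, -0.06 in CP 1128 and -0.12 in CP 1129. It was -0.36, -0.49, -0.63 and -0.81 in YF 1069, YF 1070, YF 1072 and YF 1127, and -1.03, -0.60, -0.76 and -0.79 in OF 0233, OF 0234, OF 0245 and OF 2258. CP 1128 and CP 1129 lay above every other animal compared, and CP 1068 lay just below OF 0234. CP minus OF was 0.54 (limma SE 0.20, 1.45-fold, unadjusted p = 0.0296, adjusted p = 0.912, exact permutation p = 0.114), and CP minus YF 0.31 (limma SE 0.20, unadjusted p = 0.159). In CP minus OF, 4.57% of all transcripts had an unadjusted p of 0.05 or less, and IRF5 and IRF8 were the 2 of 8 factors that did. In CP minus YF it was 3.03%, and IRF8 was the 1 of 8.

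**Figure D2:**
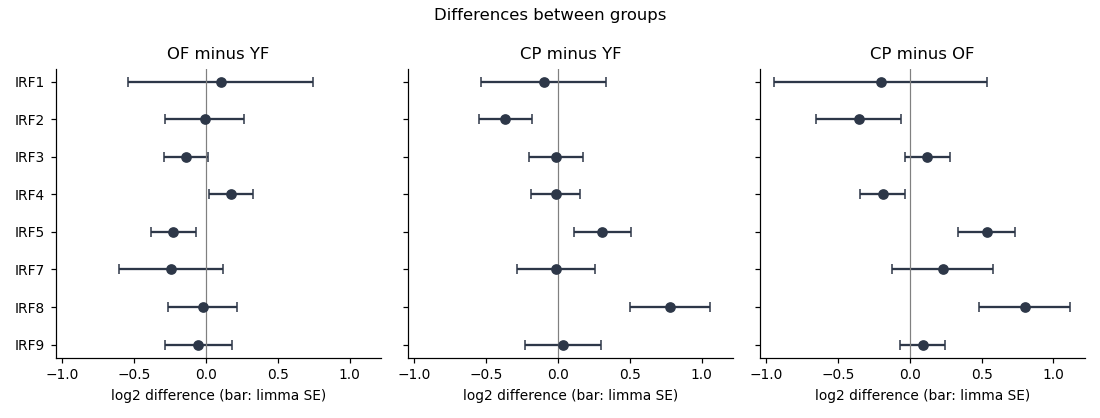
Log2 difference of each interferon regulatory factor (horizontal axis) in OF minus YF, CP minus YF and CP minus OF; points are the differences and bars ± 1 limma SE. IRF8 lies at 0.78 and 0.80 in the comparisons with CP and at -0.02 in OF minus YF. IRF4 is drawn as the mean of both its probes.

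The other 6 factors had smaller differences from CP. IRF1, IRF3, IRF4, IRF7 and IRF9 lay between -0.10 and 0.04 in CP minus YF and between -0.20 and 0.23 in CP minus OF, and IRF2 at -0.37 and -0.36. By group mean the order was CP, YF, OF for IRF5, IRF8 and IRF9, YF, CP, OF for IRF3 and IRF7, OF, YF, CP for IRF1 and, by the mean of both probes, for IRF4, and YF, OF, CP for IRF2. No neighbouring groups in these orders were apart beyond the spread of the animals, except CP and YF for IRF8, whose animals did not overlap.

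Markers of phagocytes, cells in which IRF8 and IRF5 are known to be abundant, were also higher in CP by their values. Of the 8 mononuclear phagocyte markers tested, 8 were higher in CP than in YF (median difference 0.31) and 8 than in OF (median 0.47), with 0 past the adjusted threshold. Without CP 1128 it was 6 of 8 above YF (median 0.14) and 8 of 8 above OF (median 0.31). CD14 and MSR1 were the 2 of 8 (25.0%) that did not overlap between CP and OF, against 5.79% of all transcripts. Markers of some other cells were also higher in CP. Of endothelial markers, 6 of 6 were higher than in YF and than in OF (medians 0.41 and 0.29), and of stromal markers 6 and 8 of 8 (medians 0.24 and 0.50). Without overlap were 1 of 6 endothelial markers (16.7%) in each comparison and 1 of 8 stromal (12.5%) in CP minus OF. All transcripts gave 3.83% and 5.79%. Epithelial markers were higher in 5 and 6 of 8 (medians 0.04 and 0.30). T and NK cell markers were higher in 8 and 5 of 11 (0.04 and -0.001), and B and plasma cell markers in 3 of 5 and 3 of 6 (0.03 and -0.02). Smooth muscle markers were higher in 4 and 0 of 6 (0.10 and -2.02). The mean phagocyte marker level ranged from -0.12 to 0.56 in CP, from -0.15 to 0.17 in YF and from -0.27 to -0.02 in OF, and CP minus OF gave an exact permutation p of 0.114. CP 1128, highest in IRF8, was also highest in this level. CP 1068 was above every YF and OF in IRF8 but at -0.12 in the phagocyte level. CP 1111 was at 0.27 in the phagocyte level, above every YF and OF, and within their range in IRF8. CD163 was not well above background on all 11 arrays. Of 8 general leukocyte markers, 8 were higher in CP than in YF and 7 than in OF (medians 0.27 and 0.14), but 4 and 1 without CP 1129, and 3 than in OF without OF 2258. The part of these cells in the values of IRF8 and IRF5 was not tested. Dendritic cell markers were mostly too dim, with 5 of 7 not well above background on all 11 arrays.

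**Figure D3:**
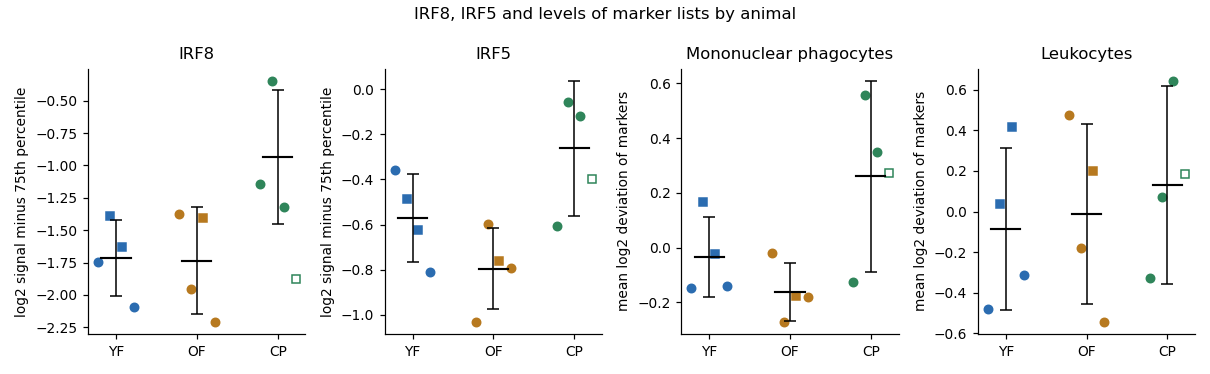
IRF8 and IRF5 (log2 signal relative to the array's 75th percentile) and the mean log2 deviation of mononuclear phagocyte and leukocyte markers, by animal; circles are slide 2, squares slide 1, the open square CP 1111, bars mean ± SD without it. CP 1068 is above all YF and OF for IRF8 but at -0.12 for phagocyte markers, and CP 1111 is the reverse.

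Genes around the factors were read as lists of the pathway. Of 32 interferon stimulated genes (ISGs) of the ISGF3 pathway tested in OF minus YF, with OAS1X and OAS1Z counted once because 1 transcript stood for both, 27 were lower and 5 higher, with a median of -0.36 against 0.01 over all transcripts, yet 0 passed the adjusted and 0 the unadjusted threshold and none separated the groups. The largest differences were -1.36 for ZBP1 (limma SE 0.72), a sensor of Z-form nucleic acids that was not well above background on every array, -0.75 for IFI27 and -0.74 for IFI6, all with an adjusted p of 0.999. Without OF 2258 they were -0.76, -0.51 and -0.32. The mean ISG level ranged from -0.49 to 0.07 in OF and from -0.37 to 0.64 in YF (exact permutation p = 0.286). Both YF with the highest level, YF 1070 and YF 1072, were on slide 1. On slide 2 alone, 20 of 33 were lower in OF, with a median of -0.08. With slide as a block 28 of 32 were lower (median -0.24), and without OF 2258 the median was -0.17. Cell markers also differed in OF minus YF, with 0 past the adjusted threshold. Stromal markers were lower in 8 of 8 (median -0.26), and phagocyte and epithelial markers each in 6 of 8 (-0.16 and -0.19). Higher were 6 of 6 smooth muscle (2.16), 4 of 6 endothelial (0.20), 5 of 8 leukocyte (0.12), 4 of 6 B and plasma cell (0.07) and 5 of 11 T and NK cell markers (-0.06). The part of these cells in the ISG values was not tested.

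The targets of IRF1 and interferon gamma were also mostly at lower values in OF minus YF, with 13 of 18 lower and a median of -0.27, which was -0.09 without OF 2258. B2M was the 1 of 18 (5.56%) that did not overlap, against 1.53% of all transcripts. It ranged from 4.60 to 4.78 in OF and from 4.86 to 5.23 in YF. CXCL9, a T cell chemokine, was at -1.07 (limma SE 0.36, unadjusted p = 0.0168, adjusted p = 0.999), followed by GBP4 at -0.62 and CXCL10 at -0.56. Without OF 2258 they were -0.83, 0.13 and -0.84, so that the sign of GBP4 rested on that animal. In the same comparison IRF1 itself was at 0.10. In CP minus OF, 16 of 19 were higher with a median of 0.35, and 3 of 19 (15.8%) did not overlap between the groups, against the 5.79% of all transcripts given above. These were B2M and PSMB10, which serve antigen presentation, and IDO1, which was not well above background on every array. In CP minus YF the median was 0.17, with 12 of 19 higher. GBP4 (-1.15), GBP5 (-0.57) and CIITA (0.56) differed most there, and CIITA, the activator of MHC class II genes, was the 1 of 19 (5.26%) that did not overlap, near the 3.83% of all transcripts.

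ISGs in CP minus OF were higher in 28 of 33, with a median of 0.19, and in 23 of 34 without OF 2258, with a median of 0.08. RSAD2 was the 1 of 33 (3.03%) that did not overlap, below the 5.79% of all transcripts. ZBP1 (1.11), IFIH1 (1.04) and MX1 (0.70) differed most, and ZBP1 and MX1 were at 0.50 and 0.39 without OF 2258. In CP minus YF, 22 of 33 were lower with a median of -0.11, and IFIH1 (0.61), OAS2 (-0.39) and IFIT3 (0.38) differed most. This direction turned on slide 2 alone, where 30 of 34 were higher in CP with a median of 0.19, and with slide as a block, where 30 of 33 were. Because every CP compared lay on slide 2, both settings give the same difference for a gene and count as a single alternative. No gene of these lists passed the adjusted threshold in any of the 3 comparisons.

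Upstream of the factors there was less to see. Receptors, JAKs, STATs and their inhibitors had medians of -0.03, 0.06 and 0.03 in OF minus YF, CP minus YF and CP minus OF over 16 genes. SOCS3, an inhibitor of JAK signalling, was at 0.91 in OF minus YF (limma SE 0.45) and at 0.48 without OF 2258. IFNLR1 was at 0.70 but not well above background on every array, and JAK1 was at -0.34. Sensors, adaptors and kinases that act on IRF3, IRF5 and IRF7 had medians of -0.06, 0.03 and 0.02, with the sensor IFIH1 at -0.44 in OF minus YF (-0.15 without OF 2258) and 1.04 in CP minus OF, and the adaptor TRAF3 at -0.64 in CP minus YF. Of the partners and corepressors of the factors, 9 of 11 were higher in OF than in YF (median 0.14) and 9 of 11 in CP than in YF (median 0.14), with IRF2BPL at 0.58 in the former.

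Among the partners, SPI1 (PU.1), with which IRF8 and IRF4 bind DNA in myeloid and B cells, was at 0.59 in CP minus YF (limma SE 0.25, adjusted p = 0.9999). SPI1 was the 1 of 11 (9.09%) that did not overlap there, against 3.83% of all transcripts. It was -1.91, -2.03 and -1.34 in CP 1068, CP 1128 and CP 1129, and -2.25, -2.10, -2.18 and -2.86 in YF 1069, YF 1070, YF 1072 and YF 1127. OF 0233 at -1.85 lay inside the range of the CP. IRF2BP1, a corepressor of IRF2, was at -0.78 in CP minus YF and -0.89 in CP minus OF, where BATF, a partner of IRF4, was at 0.74, or 0.31 without OF 2258.

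**Figure D4:**
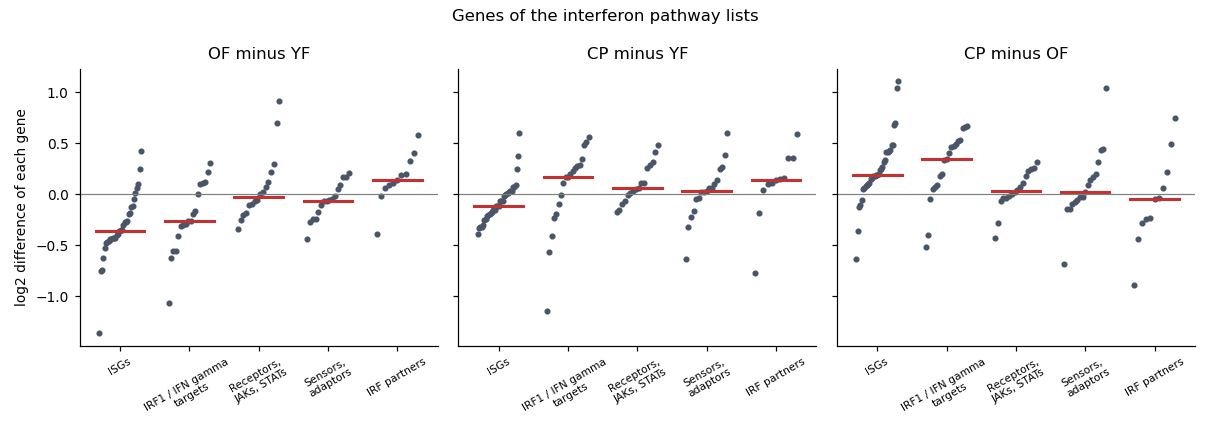
Log2 difference of each gene (points) of the 5 pathway lists in OF minus YF, CP minus YF and CP minus OF, with the median of each list as a red line. The ISG medians are -0.36, -0.11 and 0.19.

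Whether the factors moved together from animal to animal was examined on the deviations of the 11 animals from their group means, over 28 pairs of factors and over 8 pairs of a factor with the mean ISG level. None of the 36 passed Benjamini-Hochberg adjustment, for Pearson's r or Spearman's rho, and 4 had an unadjusted permutation p of r under 0.05. IRF7 and the ISG level gave r = 0.76 (exact permutation p = 0.0188, adjusted 0.226) and rho = 0.76 (p = 0.0362), and r was 0.78 without the 2 animals farthest from the median and 0.57 over the 8 animals of slide 2. IRF8 and the ISG level gave r = 0.67 (exact permutation p = 0.0168, adjusted 0.226) and rho = 0.58, and r was 0.71 without the 2 animals farthest from the median and 0.60 on slide 2. This was the 1 pair that passed adjustment with an animal left out, without CP 1129 (r = 0.83, adjusted permutation p = 0.0312).

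IRF9 and the ISG level gave r = 0.80 (exact permutation p = 0.0405, adjusted 0.326) and rho = 0.65, but r was 0.29 without YF 1070 and YF 1127, on which the relation thus rested, and 0.37 on slide 2. IRF3 and IRF9 gave r = 0.85 (exact permutation p = 0.0142, adjusted 0.226) and rho = 0.80, with r = 0.60 without the same 2 animals and 0.91 on slide 2. IRF1 and IRF2, activator and antagonist, gave r = -0.19 and rho = 0.17, and IRF5 with the ISG level gave r = 0.28 and rho = 0.15.

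**Figure D5:**
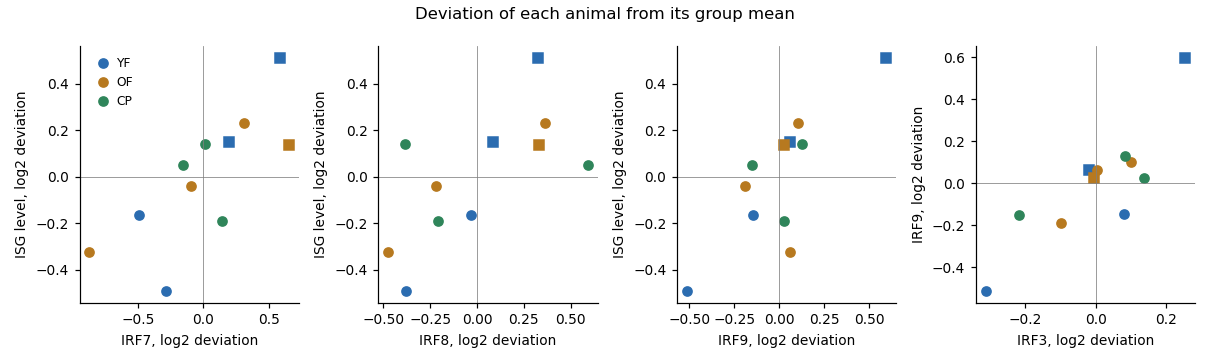
Log2 deviation of each of the 11 animals from its group mean, for IRF7, IRF8 and IRF9 against the mean level of the ISGs and for IRF3 against IRF9; circles are slide 2 and squares slide 1. YF 1070, the upper right square, and YF 1127 are the extremes in the plots of IRF9.

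The genes whose values over the 11 arrays were most like each factor, among 16432 transcripts with a symbol, are given as a description. For IRF9 they were TREX1 (r = 0.90), ISG15 (r = 0.90) and OAS1Y (r = 0.86), but r dropped to 0.60, 0.72 and 0.26 without the 2 animals farthest from the median. ISG15 was at 2.43 in YF 1070, 1.32 in YF 1072 and 0.22 in YF 1127. For IRF7 they were FAM3A (r = 0.97), ARRDC1 (0.97) and TMEM248 (0.97), for IRF8 INSL3 (0.93), PHLDB3 (0.92) and PSRC1 (0.92), and for IRF5 SMARCAL1 (0.94), HDGFL1 (0.93) and UACA (0.91). For IRF1 they were RBMS2 (0.96), C1GALT1 (0.92) and MAST3 (0.92), for IRF2 EYA3 (0.95), CPT1A (0.94) and CYTH1 (0.93), and for IRF3 HIGD1B (0.89), NDUFA4L2 (0.88) and a 5S_rRNA (0.86). For IRF4, as the mean of both probes, they were a U6 RNA (0.95), IL10RA (0.94) and RGS11 (0.86). These were picked as the highest r of all, across arrays that share slides and scaling, and carry no test.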

How the data were processed

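Endometrial RNA of each cow was hybridized in 1 colour (Cy-3), 1 array per animal. Per the file headers, the authors deposited spot intensity from Feature Extraction 10.7.3.1, with background corrected but no scaling across arrays. They describe FCROS for calling transcripts, and a normalization is not given in the sources used here. Here, processed intensity was put on the log2 scale relative to the array's 75th percentile. The 1319 control spots and 66 probes flagged as outliers were left out, and probes were averaged per transcript, giving 26323 transcripts. A symbol came from RefSeq accessions for 12790 transcripts and from the array's annotation for 9187, before the flagged probes were removed. For a gene with several transcripts the brightest over the 12 arrays was used. Some items are not reported here.

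Comparisons were fitted in limma 3.58.1 (R 4.3.3), two-sided, with only the groups compared in a fit. A transcript was tested if at least 1 group had a probe clearly above background on all its arrays, which left 19755, 19993 and 19914 for OF minus YF, CP minus YF and CP minus OF. Single values were tested by exact two-sided permutation of animals (smallest p 0.0286 for 4 against 4, 0.0571 for 4 against 3). The 95% intervals use the pooled SD. FCROS was recoded from its description. Correlations used all 3456 within-group permutations (smallest p 0.000289). When 200 simulated transcripts were shifted by a log2 value of 2, limma found 77%, 73.5% and 68% of them in the 3 comparisons. That shift is larger than any difference of a factor, the largest being 0.80 for IRF8 in CP minus OF. Smaller shifts were not simulated, and the simulated noise was independent between arrays, without slides or tissue composition. The simulation therefore does not show how often differences of the size seen here would be found. The signal over background and the number of arrays limit the precision; the files hold no counts. P-values measure the spread between animals, of which OF and YF share 1 nuclear genome.

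Alternatives were quantile normalization, normexp with an offset of 50, median centring, the brightest probe, no filter, a block for the slide, a joint fit of the 3 groups, array weights, CP 1111 included and each animal left out. Chosen after seeing the data were slide 2 alone, the slide term, the exact tests with CP 1111, the list and correlation values under alternatives, and the counting of symbols that share a transcript as 1 gene. The genes named were all 8 factors, per list and comparison the 3 genes with the largest difference, and per factor the 3 most alike; SPI1, BATF, B2M, PSMB10, IDO1, CIITA, CD14, CD163, MSR1 and RSAD2 were named after their values were seen. The factors and lists were chosen with earlier results of these data known.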

Additional observations from a re-analysis of the deposited data

How the results depend on the processing

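No factor passed the adjusted threshold under any of 408 recomputed differences (smallest adjusted p 0.132, for IRF8 in CP minus OF with array weights), and 345 kept their sign. Of the 24 differences, 11 kept it under every alternative, among them IRF8 and IRF5 in both comparisons with CP. Those of IRF8 ranged from 0.48 to 0.98 in CP minus YF and from 0.51 to 1.22 in CP minus OF. FCROS called 944 to 1555 transcripts and 0 of the 8 factors under every setting run. In OF minus YF, limma called 0 transcripts under every alternative, with 386 to 2175 at an unadjusted p of 0.05.

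Signs that turned belonged to differences between -0.24 and 0.23, a range in which others, such as IRF3 in OF minus YF at -0.14, kept theirs. The cause was not tested. In OF minus YF, IRF1 was -0.77 and IRF4 -0.015 with array weights, IRF2 was 0.083 with normexp, 0.0051 with median centring, 0.027 with slide as a block and 0.23 on slide 2 alone, IRF8 was 0.0068 with normexp, 0.084 with the block and 0.074 on slide 2, and IRF9 was 0.045 with the block and 0.27 on slide 2. In CP minus YF, the block and slide 2 alone gave 0.31 for IRF1, 0.10 for IRF3, 0.088 for IRF4 and 0.38 for IRF7. Both give the same difference here because every CP compared lay on slide 2, so they are not separate alternatives. The brightest probe gave 0.16 for IRF1, 0.027 for IRF3, 0.039 for IRF4, 0.0033 for IRF7 and -0.0090 for IRF9. Median centring gave 0.027 for IRF3, 0.027 for IRF4 and 0.028 for IRF7, normexp 0.013 for IRF1, quantile normalization 0.031 for IRF4, array weights -0.17 for IRF9, and CP 1111 included 0.029 for IRF7. In CP minus OF, array weights gave 0.68 for IRF1.

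With each animal left out, OF minus YF ranged from -0.55 to 0.43 for IRF1, -0.26 to 0.17 for IRF2, -0.46 to 0.048 for IRF7, -0.15 to 0.14 for IRF8 and -0.22 to 0.15 for IRF9. CP minus YF ranged from -0.36 to 0.33 for IRF1, -0.12 to 0.093 for IRF3, -0.089 to 0.073 for IRF4, -0.18 to 0.18 for IRF7 and -0.14 to 0.23 for IRF9. CP minus OF ranged from -0.53 to 0.45 for IRF1 and from -0.063 to 0.44 for IRF7.

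Over all transcripts, limma called 1 in CP minus YF with quantile normalization, 2 with all 3 groups in 1 fit, 1 with array weights and 4 with CP 1111 included, and in CP minus OF 26 with array weights and 2 with CP 1111 included. With each animal left out both counts ranged from 0 to 1. The correlations past adjustment ranged from 0 to 1 of 36, the 1 being IRF8 with the ISG level without CP 1129. No paired analysis was possible because the replicate numbers are the animals' own and no group shares one with another.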
